A study of Saccharomyces cerevisiae with 6 samples.

Results

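The caffeine response of yeast carrying a doubly substituted TOR1 gene was set against that of yeast carrying unaltered TOR1 at a single dose, 6 mM caffeine. The comparison used 2 of the 6 arrays of the series, 1 per genotype. The strain labelled 3HA-TOR1 [I1954V + W2176R], called mutant here, was a tor1 deletion in the W303a background that carried the plasmid p3HA-TOR1 with both substitutions. Its counterpart, called WT here, was the same tor1 deletion carrying p3HA-TOR1 without them. Both strains therefore lacked the chromosomal TOR1 gene and depended on a plasmid copy with an epitope tag. How many transformants or cultures were used is not stated by the labels. On each array polyadenylated RNA from cells in caffeine (Cy5) was hybridised together with RNA from untreated cells of the same strain (Cy3), so a value is the response of a strain to caffeine and carries no level of expression. The other 4 arrays held the same strains at 3 and 9 mM.

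TOR1 encodes a protein kinase that works in TOR complex 1. When nitrogen and amino acids are plentiful the complex promotes the making of ribosomes and keeps the GATA factors Gln3 and Gat1 from switching on genes for poor nitrogen sources, a control called nitrogen catabolite repression. Caffeine inhibits the complex. Residue changes in the FRB domain of the kinase, where the complex of rapamycin and its binding protein docks, and in the kinase domain itself can lower sensitivity to such inhibitors.

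Each value is the log2 of a ratio, from which the median of the array was subtracted, so 0 means the response of the typical gene. Which channel stood on top of the ratio is not stated by the labels; caffeine over no caffeine is assumed, and under the opposite sense all signs below turn. Of 5561 named genes, 5317 had a value on both 6 mM arrays. The deposited array medians were -0.40 on the mutant array and -0.36 on the WT array, and the SD over genes after centring was 0.91 on the mutant array and 1.02 on the WT array. TOR1 itself had 0.36, 0.24 and 0.37 in the mutant at 3, 6 and 9 mM, against -0.25, -0.06 and -0.06 in WT, so its difference at 6 mM was 0.30. These arrays compare each strain with itself and cannot show how much TOR1 RNA the strains held, nor which allele. Likewise the a mating type of W303a could not be checked, since log ratios do not show whether a marker is absent.

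A property of the arrays affects all values at this dose and is given first. Values followed the probe number of the spot. The numbers run in cycles of 96, and when a cycle was divided into 4 bands of 24 numbers, each taken in 4 steps, the resulting 16 position classes accounted for 53.8% of the variance between spots on the mutant 6 mM array and 12.4% on the WT 6 mM array. The share was 47.9% and 37.9% on the mutant arrays at 3 and 9 mM, and 8.03% and 11.4% on the WT arrays at those doses. At 6 mM the class medians spanned -1.55 to 0.57 in the mutant and -0.48 to 0.65 in WT. In class 15 the median difference between mutant and WT was -1.46 and 73.4% of spots were at least 2-fold lower in the mutant. In class 4 the median difference was 1.10, with 56.1% of spots at least 2-fold higher and 0.60% at least 2-fold lower. Whether the probe number follows the place of a spot on the slide was not given. The pattern was noticed after the values were seen, and counts, list medians and slope calls below are given both as centred and after subtracting from each spot the median of its class on that array, called position adjusted. Values of single genes are as centred unless marked as adjusted. Such an adjustment also removes any true difference that the genes of a class share.

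**Figure D1:**
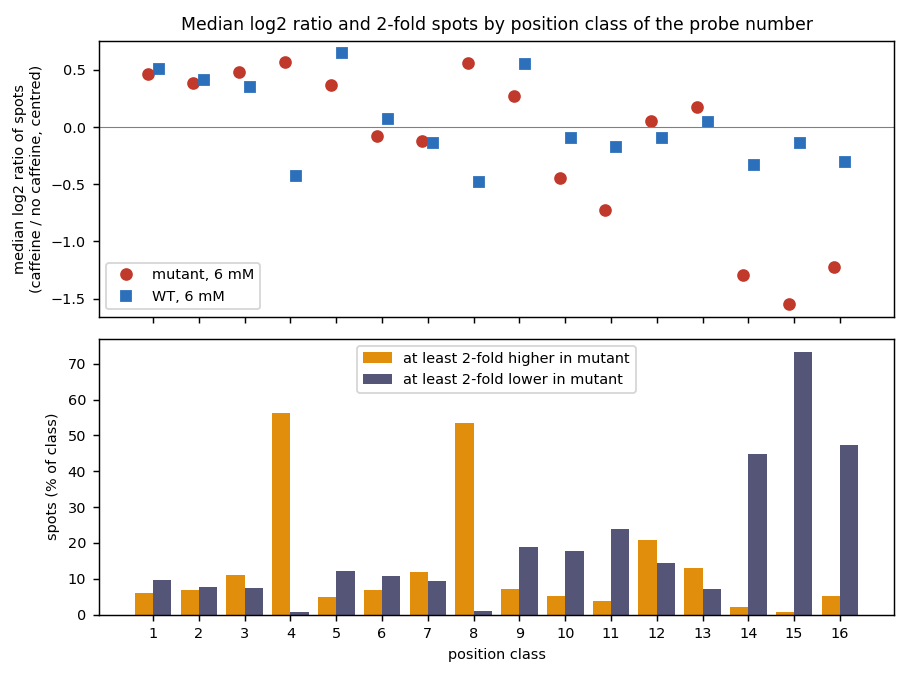
Spots grouped by position class of the probe number (16 classes, horizontal axis). The upper panel shows the median centred log2 ratio of each class in the mutant (circles) and WT (squares) at 6 mM, and the lower panel the percentage of spots at least 2-fold higher (orange) or lower (grey) in the mutant. Classes 14, 15 and 16 lie between -1.55 and -1.23 in the mutant and between -0.33 and -0.14 in WT.

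Spots that carried the same gene gave a technical spread. Over 31 genes with at least 2 spots measured, the pooled SD between spots of a gene was 0.82 for the difference as centred and 0.59 after position adjustment, on the log2 scale. Some of these spots are different probes of the gene. A 2-fold difference, 1 on this scale, is therefore close to the disagreement between spots of a single gene, and no test of a gene at 6 mM is possible with 1 array per side.

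Among the 5317 genes, 705 were at least 2-fold higher in the mutant than in WT at 6 mM (13.3% of genes) and 1020 were at least 2-fold lower (19.2%). After position adjustment the counts were 585 higher (11.0%) and 530 lower (9.97%), so the excess of lower genes was not seen. Past 2-fold both with and without the adjustment were 391 higher and 435 lower genes. At 4-fold, 117 genes were higher and 226 lower as centred, against 72 and 85 after adjustment. The median over all genes was -0.16 as centred and 0.00 after adjustment, and list medians below are to be read against it. List counts are likewise to be read against the percentages of all genes given above.

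A second measure drew on all 6 arrays: a line through 0 in dose was fitted for each genotype with limma over 5212 genes, and the slopes were compared. It is not a test of the 6 mM difference, which is part of its input. At a Benjamini-Hochberg adjusted p below 0.05 it called 101 genes with a higher slope in the mutant (1.94%) and 121 with a lower slope (2.32%). After position adjustment it called 131 higher and 104 lower, 4.51% of genes in all. These calls depend on the setting: quantile normalization gave 0, with 648 genes at an unadjusted p below 0.05, and leaving out the WT array at 6 mM gave 19. Nothing in the sources says that the doses were separate cultures or that the untreated RNA was not a single pool per strain. These p-values set the difference between slopes against the scatter of the arrays around the lines. That scatter may be only technical.

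The 15 genes with the lowest difference, mutant minus WT, included all 4 copies of ASP3, the cell-wall asparaginase that releases ammonia from extracellular asparagine. ASP3-2 had -0.93 in the mutant, against 5.53 in WT, a difference of -6.45 and a ratio of responses 87.5-fold lower in the mutant. ASP3-1 had -1.04 in the mutant and 5.37 in WT. ASP3-3 had 1.04 in the mutant and 5.06 in WT, and ASP3-4 had 1.47 in the mutant and 6.00 in WT. The first pair of copies lies in position class 15, and the other pair in classes 7 and 5. After position adjustment the 4 copies ranged from 0.51 to 1.16 in the mutant and from 5.19 to 5.66 in WT, with differences of -5.04 to -4.04. The copies are nearly identical and their probes may share RNA, so they are not 4 separate observations. ASP1, the cytosolic asparaginase, was on the other side, with -0.66 in the mutant and -2.04 in WT.

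Allantoin and urea genes serve to take up and degrade these purine breakdown products as nitrogen sources. Those measured on both 6 mM arrays were lower in the mutant. The urea permease DUR3 was not among them, since it had no mutant value at 6 mM. Its difference was 1.26 at 3 mM and -0.61 at 9 mM. All 6 measured members of 9 listed were at least 2-fold lower, with and without position adjustment. Their median was 0.44 in the mutant and 2.65 in WT, and the median difference was -2.67 as centred and -2.46 adjusted. DAL5, the allantoate permease, had 1.16, 1.10 and 1.79 in the mutant at 3, 6 and 9 mM, against 3.96, 5.74 and 6.19 in WT. DAL7, a malate synthase of this pathway, had 0.98 at 6 mM in the mutant and 4.53 in WT. DAL4, the allantoin permease, had 0.49 in the mutant and 3.62 in WT. DAL1, the allantoinase, had -0.72 in the mutant and 1.50 in WT. At 6 mM the mutant values of these 4 genes lay between -0.72 and 1.10, all below the WT values. Of the 6 members fitted, 4 had a called lower slope in the mutant, and 5 after adjustment. Over the members measured at 3 and 9 mM, which add DAL2 and DUR3, the list's median difference was -0.49 at 3 mM and -3.13 at 9 mM.

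The nitrogen-repressed uptake genes divided. Of 17 measured members of the list of asparaginases, peptide users and permeases, 11 were at least 2-fold lower in the mutant and 4 at least 2-fold higher as centred, and 9 lower and 2 higher after adjustment. CPS1, a vacuolar carboxypeptidase, had -0.25 in the mutant and 4.47 in WT, and its difference of -4.72 became -3.31 after adjustment. OPT2, an oligopeptide transporter, had 0.49 in the mutant and 3.97 in WT. UGA4, the GABA permease, had 0.68 in the mutant and 3.49 in WT, and PTR2, the di- and tripeptide transporter, had 0.63 in the mutant and 2.85 in WT. As centred, these all lay near the array median in the mutant and well above it in WT. After adjustment CPS1 had 1.30 in the mutant and 4.61 in WT. The other group had low values in WT. GAP1, the general amino acid permease, had -0.72 in the mutant and -2.29 in WT, and the ammonium transporter MEP3 had 0.68 in the mutant and -1.53 in WT. Both GAP1 and MEP3 belong to classes 4 and 8, and after adjustment their differences were 0.56 and 1.18. OPT2, UGA4, PTR2, GAP1, MEP3 and ASP1 were named after their values were seen. A lower slope was called for 8 of the 17 and a higher slope for 0, and position adjustment made this 9 and 0.

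The transcription regulators of this control were mixed. GAT1, the GATA activator that is itself nitrogen repressed, was higher in the mutant, with 0.35 there and -1.04 in WT (adjusted difference 1.26). GLN3, the other activator, had -1.79 in the mutant and 0.34 in WT, and its difference of -2.13 became -0.72 after adjustment. DAL80, a GATA repressor, had -1.44 in the mutant and 0.46 in WT (adjusted difference -1.55). The 9 regulators counted 1 higher and 4 lower as centred, and 1 higher and 1 lower after adjustment.

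Genes for proline, GABA and glutamate use showed a smaller shift in the same direction as the allantoin genes. Of 12 measured members, 5 were at least 2-fold lower and 0 higher, as centred and after adjustment, with medians of 0.10 in the mutant and 1.28 in WT. GDH2, the glutamate dehydrogenase that releases ammonia, had 0.58, -0.47 and 1.20 in the mutant at 3, 6 and 9 mM, against 1.18, 2.71 and 3.22 in WT. PUT1, the proline oxidase, had -0.06 at 6 mM in the mutant and 2.05 in WT. The GABA transaminase UGA1 was above the median in both genotypes, at 1.58 in the mutant and 3.28 in WT. In the list for amino acid breakdown, 6 of 13 genes were at least 2-fold lower and 1 higher, or 8 lower and 2 higher after adjustment. CHA1, the serine and threonine deaminase, was high in both, at 3.42 in the mutant and 4.80 in WT. BAT2, the cytosolic branched-chain aminotransferase, had 2.11 in the mutant and 4.47 in WT.

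The other genes among the 15 lowest have varied roles. AMD2, a putative amidase, had -1.34 in the mutant and 3.08 in WT. SSU1, a sulfite pump, had -1.44 in the mutant and 2.75 in WT. Both lie in the opposite direction on the arrays as centred, but in the mutant they were -0.05 and -0.15 after position adjustment. GIT1, a glycerophosphoinositol permease, had 0.26 in the mutant and 4.34 in WT, and TMT1, the trans-aconitate methyltransferase, had 0.00 in the mutant and 4.07 in WT. VBA1, a vacuolar permease for basic amino acids, had -0.29 in the mutant and 3.58 in WT. RRN5, a subunit of the upstream activating factor of RNA polymerase I, had -1.12 in the mutant and 2.72 in WT, or 0.43 and 2.86 adjusted. SRS2, a DNA helicase, had -1.39 in the mutant and 2.38 in WT, or -0.16 and 2.68 adjusted. NRS1 had -0.76 in the mutant and 3.15 in WT, or 0.54 and 3.48 adjusted. AAD14 is described with its family below. All 15 also had a called lower slope, and 14 after position adjustment, where GIT1 had an adjusted p of 0.0583 in limma. With quantile normalization 0 of the 15 were called, and without the WT 6 mM array 3 were (ASP3-3, SRS2 and VBA1). By the same ranking of adjusted values 9 of these 15 were again among the lowest 15, among them DAL5 and the ASP3 copies.

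**Figure D2:**
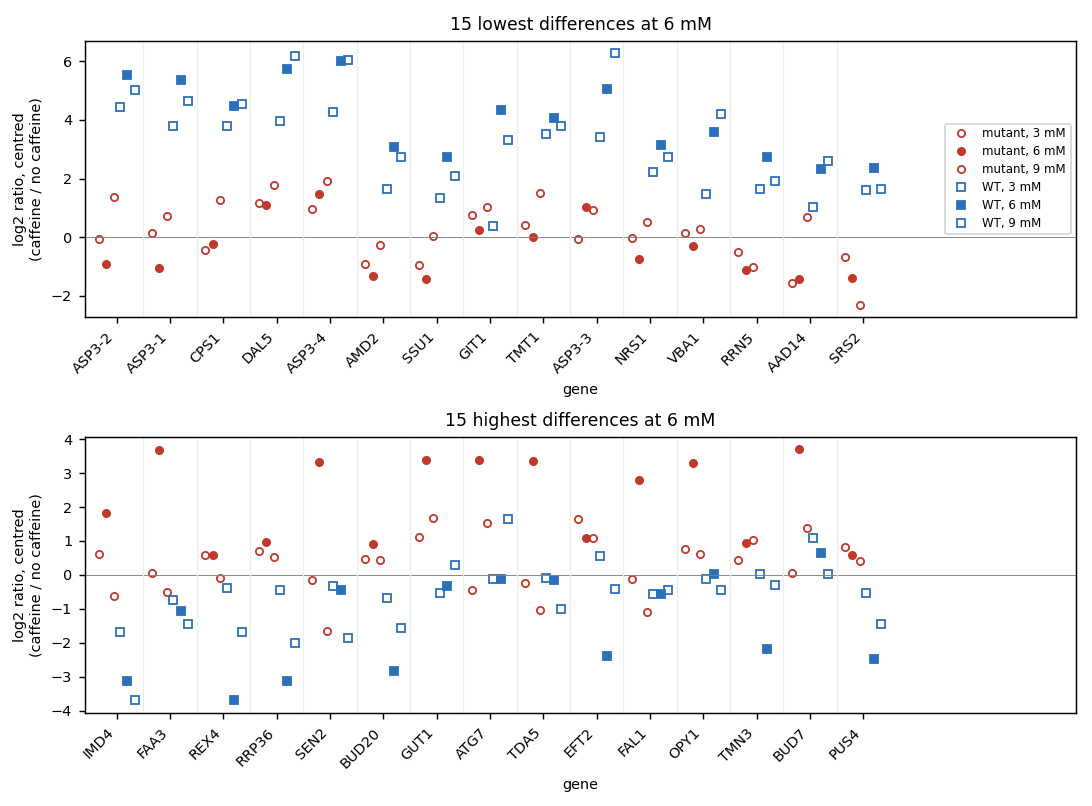
Centred log2 ratios of the 15 genes with the lowest (upper panel) and the 15 with the highest (lower panel) difference at 6 mM. For each gene the mutant arrays (circles) stand left of the WT arrays (squares), each at 3, 6 and 9 mM from left to right, with 6 mM filled. ASP3-2 has -0.93 in the mutant and 5.53 in WT at 6 mM, and FAA3 has 3.68 in the mutant at 6 mM but 0.07 and -0.49 at 3 and 9 mM.

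The aryl alcohol dehydrogenases, a subtelomeric family of near-identical oxidoreductases, were lower in the mutant in all 6 measured members of 7 listed, each at least 2-fold with and without adjustment. Their median was 0.73 in the mutant and 2.41 in WT. AAD14 had -1.57, -1.44 and 0.67 in the mutant at 3, 6 and 9 mM, against 1.04, 2.33 and 2.61 in WT. AAD6 and AAD10 were above the median in both genotypes at 6 mM, at 1.45 and 1.58 in the mutant and 3.58 and 3.66 in WT. At 9 mM the difference of AAD10 was -0.15. AAD4 was lower in the mutant at 6 mM only, with differences of 0.49, -1.64 and 0.26 at 3, 6 and 9 mM. As with ASP3, the members of this family may share hybridised RNA.

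Retrograde genes, which feed 2-oxoglutarate to glutamate synthesis when mitochondria are impaired, included some of the larger differences. CIT2, the peroxisomal citrate synthase used as the marker of this response, had 1.47 in the mutant and 4.58 in WT, with an adjusted difference of -2.77. DLD3, a cytosolic lactate dehydrogenase, had 0.38 in the mutant and 2.75 in WT, with an adjusted difference of -1.45. The list as a whole had 4 of 12 genes at least 2-fold lower and 0 higher, before and after adjustment, a median difference of -0.37 as centred and -0.55 adjusted, and 0 called slopes.

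Genes that make ribosomes differed in the other direction. Of 118 measured ribosome biogenesis genes (124 listed), 64 were at least 2-fold higher in the mutant and 4 at least 2-fold lower as centred. After position adjustment 80 were higher and 0 lower, and 114 of the 118 had a difference above 0. The median was -0.17 in the mutant and -1.38 in WT, and the median difference was 1.14 as centred and 1.25 adjusted. RRP36, an early factor of small subunit processing, had 0.71, 0.96 and 0.54 in the mutant at 3, 6 and 9 mM, against -0.43, -3.12 and -2.02 in WT. UTP13, a protein of the small subunit processome, had 0.14 at 6 mM in the mutant and -2.48 in WT. YTM1, needed for the large subunit, had 0.18 in the mutant and -2.83 in WT (-0.39 and -2.40 adjusted). In all 3 the mutant value lay near or above the array median and the WT value more than 4-fold below it. A higher slope was called for 35 of 115 genes fitted and a lower slope for 0, and after adjustment for 44 and 0.

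The cytosolic ribosomal proteins showed the same direction with somewhat smaller medians. Of 76 large subunit proteins, 37 were at least 2-fold higher in the mutant and 0 lower, with medians of -0.48 in the mutant and -1.61 in WT. Of 56 small subunit proteins, 23 were higher and 0 lower, with medians of -0.47 in the mutant and -1.58 in WT. Position adjustment raised these counts to 41 and 30, with 0 lower in each. The adjusted difference was above 0 for 75 of 76 and 54 of 56 genes. RPL14B had 0.00, -0.04 and 0.04 in the mutant at 3, 6 and 9 mM, against -1.70, -2.83 and -2.18 in WT. RPS21A had -0.72 at 6 mM in the mutant and -3.29 in WT (adjusted difference 1.56). The adjusted difference of RPL14B was 1.79, against 2.79 as centred. RPS4B had 0.28 in the mutant and -2.70 in WT, and its difference of 2.98 became 1.94 after adjustment, since its class is one of those where spots were high in the mutant and low in WT. Many of these proteins have a nearly identical second gene whose RNA the probes may share. A higher slope was called for 9 of 74 large subunit and 6 of 56 small subunit genes, and for 15 and 6 after adjustment.

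The polymerases and factors around the ribosome were mostly on the same side. In the list of RNA polymerases I and III, which transcribe ribosomal and transfer RNA genes, 9 of 22 subunits were at least 2-fold higher and 1 lower, or 10 and 0 after adjustment. RPA43, a polymerase I subunit, had -0.60 in the mutant and -3.29 in WT. RPA12, another, had 0.09 in the mutant and -2.12 in WT. Among 39 translation factors, 15 were at least 2-fold higher and 3 lower (16 and 2 after adjustment). EFT2, a gene for elongation factor 2, had 1.07 in the mutant and -2.38 in WT (adjusted difference 2.45). Its WT values at 3 and 9 mM were 0.57 and -0.41. TIF4632, a gene for eIF4G, had -2.25 in the mutant and 0.02 in WT (adjusted difference -1.35). The mitochondrial ribosome, with 70 genes measured, had 18 higher and 6 lower, or 19 and 0 after adjustment, with a median difference of 0.58 as centred and 0.64 adjusted. Cytosolic tRNA synthetases had 3 of 18 higher and 0 lower with and without adjustment, a share of higher genes near that of all genes (13.3% as centred and 11.0% adjusted).

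**Figure D3:**
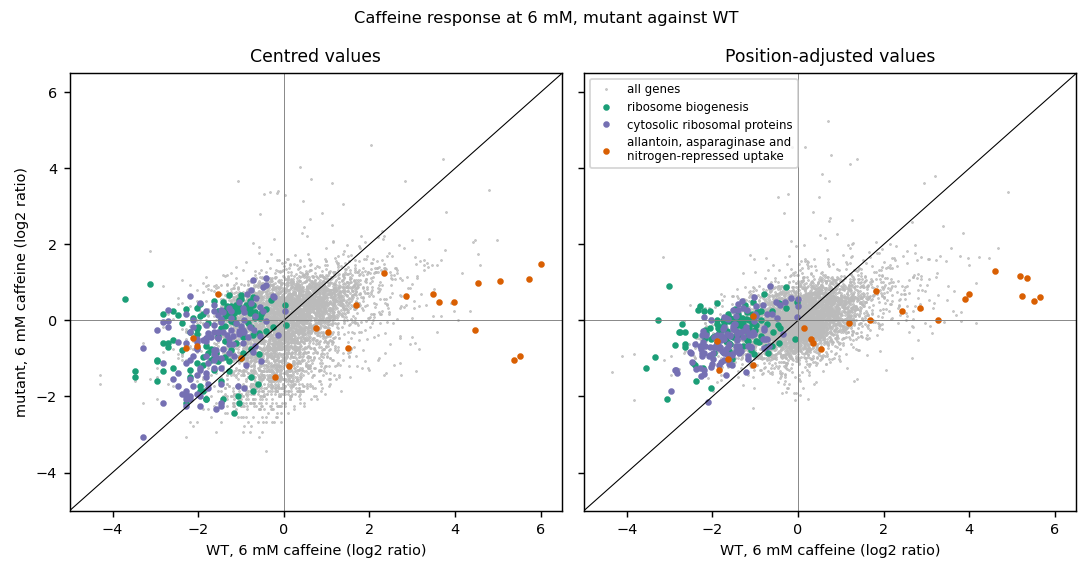
Log2 ratio (caffeine over no caffeine) of each gene at 6 mM in WT (horizontal) and in the mutant (vertical), as centred on the left and position adjusted on the right; the diagonal marks equal values. Ribosome biogenesis genes (median -0.17 in the mutant and -1.38 in WT) and ribosomal protein genes lie mostly above the diagonal, and most allantoin, asparaginase and nitrogen-repressed uptake genes lie far below it.

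Among the 15 highest differences, IMD4, an IMP dehydrogenase of guanine nucleotide synthesis, stood first, with 0.63, 1.83 and -0.62 in the mutant at 3, 6 and 9 mM, against -1.70, -3.12 and -3.68 in WT. Its difference of 4.95 was 4.82 after adjustment, 30.9-fold and 28.2-fold. IMD4, RRP36, BUD20 (a factor of pre-60S export) and PUS4 (a tRNA pseudouridine synthase) had a called higher slope. PUS4 lost the call after adjustment, with an adjusted p of 0.0686 in limma, and the other 3 kept it. With quantile normalization, and likewise without the WT 6 mM array, 0 of the 4 were called. In 6 others, FAA3, SEN2, TDA5, FAL1, OPY1 and BUD7, the mutant value at 6 mM stood at least 4-fold above both other mutant doses. FAA3, a fatty acyl-CoA synthetase, had 0.07, 3.68 and -0.49 in the mutant at 3, 6 and 9 mM, against -0.75, -1.08 and -1.46 in WT, and its difference of 4.75 became 6.16 after adjustment. SEN2, a subunit of the tRNA splicing endonuclease, had -0.16, 3.32 and -1.65 in the mutant and -0.32, -0.45 and -1.87 in WT. The high mutant reading of these 6 genes was seen at 6 mM and not at the neighbouring doses, and none of the 6 slopes was called. GUT1, the glycerol kinase, and ATG7, an autophagy enzyme, also had high mutant values at 6 mM, 3.38 and 3.40, against -0.33 and -0.14 in WT. For EFT2 and TMN3 the WT values at 6 mM were low, with 1.07 and 0.94 in the mutant and -2.38 and -2.20 in WT. At 3 and 9 mM the WT values were 0.57 and -0.41 for EFT2, and 0.04 and -0.29 for TMN3. None of these 4 slopes was called. In REX4, a putative exonuclease of ribosomal RNA processing, it was the WT value at 6 mM, -3.70, that stood at least 4-fold away from the WT values at 3 and 9 mM, -0.39 and -1.68. By the same ranking of adjusted values 10 of the 15 were again among the highest 15.

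A run of probe numbers 4 apart, from 27 to 43, was noticed on the WT array after its values were seen. MCM2, a subunit of the replicative helicase, had -0.44 in the mutant and 2.99 in WT at 6 mM, while its WT values at 3 and 9 mM were -0.61 and -0.18. Its probe has number 39. The probes of YBL055C and SLA1, numbers 31 and 43, had 0.11 and 0.34 in the mutant and 3.68 and 3.05 in WT at 6 mM, against WT values of 0.30 and -0.05 at 3 mM and 0.64 and 0.79 at 9 mM. Probe 27, which is unnamed, had a lower WT value of 1.06 at 6 mM, against -1.05 and -1.14 at 3 and 9 mM. Probe 35, of URA7, had no WT value at 6 mM. The low value of MCM2 in the mutant relative to WT comes with high WT readings at 6 mM on spots of unrelated genes.

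Genes of amino acid and purine synthesis were mixed. Counts here are again of genes at least 2-fold apart. Of 9 lysine genes, 5 were lower in the mutant and 1 higher, or 4 and 0 after adjustment. LYS1, saccharopine dehydrogenase, had 0.09 in the mutant and 2.11 in WT. Leucine, isoleucine and valine genes were higher in 3 of 9 and, after adjustment, in 5 of 9, with 0 lower either way. ILV3, dihydroxyacid dehydratase, had 0.32 in the mutant and -1.04 in WT. Arginine genes divided: CPA1, a subunit of carbamoyl phosphate synthetase, had 1.74 in the mutant and -0.31 in WT, and ARG4, argininosuccinate lyase, had 1.46 in the mutant and 3.27 in WT. GCN4, the activator of these pathways, had -2.66 in the mutant and -0.29 in WT, with an adjusted difference of -1.46. In purine synthesis and salvage 5 of 21 genes were higher and 5 lower, or 6 and 6 after adjustment. ADE17 had 0.23 in the mutant and 2.46 in WT, on the other side from IMD4. SNZ1, a pyridoxine synthesis gene of stationary phase, had -0.47, 0.26 and 2.24 in the mutant at 3, 6 and 9 mM, against 4.22, 3.98 and 2.53 in WT, so its difference narrowed to -0.29 at 9 mM.

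Permeases of rich medium were at least 2-fold higher in the mutant in 6 of 16 members and lower in 2, or 4 and 2 after adjustment. BAP3, a branched-chain amino acid permease, had 0.37 in the mutant and -2.20 in WT. GNP1, the glutamine permease, had -1.66 in the mutant and -4.29 in WT, and MUP1, the methionine permease, had -0.14 in the mutant and -2.20 in WT. Their differences after adjustment were 1.56, 3.17 and 1.93. The deposited WT ratio of GNP1 at 6 mM was 0.04, the lowest on that array, so the size of its difference is uncertain.

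The stress and wall lists had smaller median differences at this dose than the allantoin and ribosome biogenesis lists. The Msn2/Msn4 general stress list had a median of 0.61 in the mutant and 0.74 in WT. Its median difference was -0.36 as centred and -0.31 adjusted, with 31 of 48 genes below 0 either way. In this list 6 of 48 genes were at least 2-fold higher and 16 lower, or 5 and 10 after adjustment. CTT1, the cytosolic catalase, had -0.75, -1.04 and 2.11 in the mutant at 3, 6 and 9 mM, against 0.39, 2.21 and 3.99 in WT, and its adjusted difference at 6 mM was -2.33. ALD3, an aldehyde dehydrogenase, had 1.25 at 6 mM in the mutant and 4.15 in WT. The cell wall integrity list had a median of 0.53 in the mutant and 0.65 in WT, with 2 of 37 higher and 10 lower, or 0 and 8 after adjustment. PST1, a wall protein made on wall damage, had 1.46 in the mutant and 3.46 in WT, and SRL3 had 1.49 in the mutant and 3.08 in WT (adjusted difference -2.59). The median difference of the wall list was -0.49, -0.37 and -0.04 at 3, 6 and 9 mM. Of 29 vacuolar and autophagy genes, 8 were at least 2-fold lower and 1 higher, or 9 and 2 after adjustment. The largest difference, that of ATG7, was 3.54 (2.50 adjusted). APE1, an aminopeptidase carried to the vacuole by the Cvt pathway, had 0.45 in the mutant and 3.91 in WT. YSP3, a putative subtilisin-like protease, had 0.40 in the mutant and 2.40 in WT. The slopes of APE1 and YSP3 were called lower as centred and after adjustment.

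For some lists the centred difference moved with the position classes. The proteasome had 12 of 35 genes at least 2-fold lower and 3 higher as centred, but 3 lower and 0 higher after adjustment, and its median difference was -0.75 as centred and -0.28 adjusted. Of the 35 genes, 12 lay in classes 14 to 16, where the list's median difference was -1.76, against -1.08 for all genes of those classes. In classes other than these, 4 and 8, the median difference was -0.53 for 20 proteasome genes and -0.13 for all genes. The antioxidant list had 9 of 20 lower as centred and 4 adjusted, and phosphate starvation genes 7 of 16 lower as centred and 4 adjusted. Histones had a median difference of -0.36 as centred and 0.16 adjusted, and meiosis genes 0.10 as centred and -0.55 adjusted, so neither list kept its sign.

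**Figure D4:**
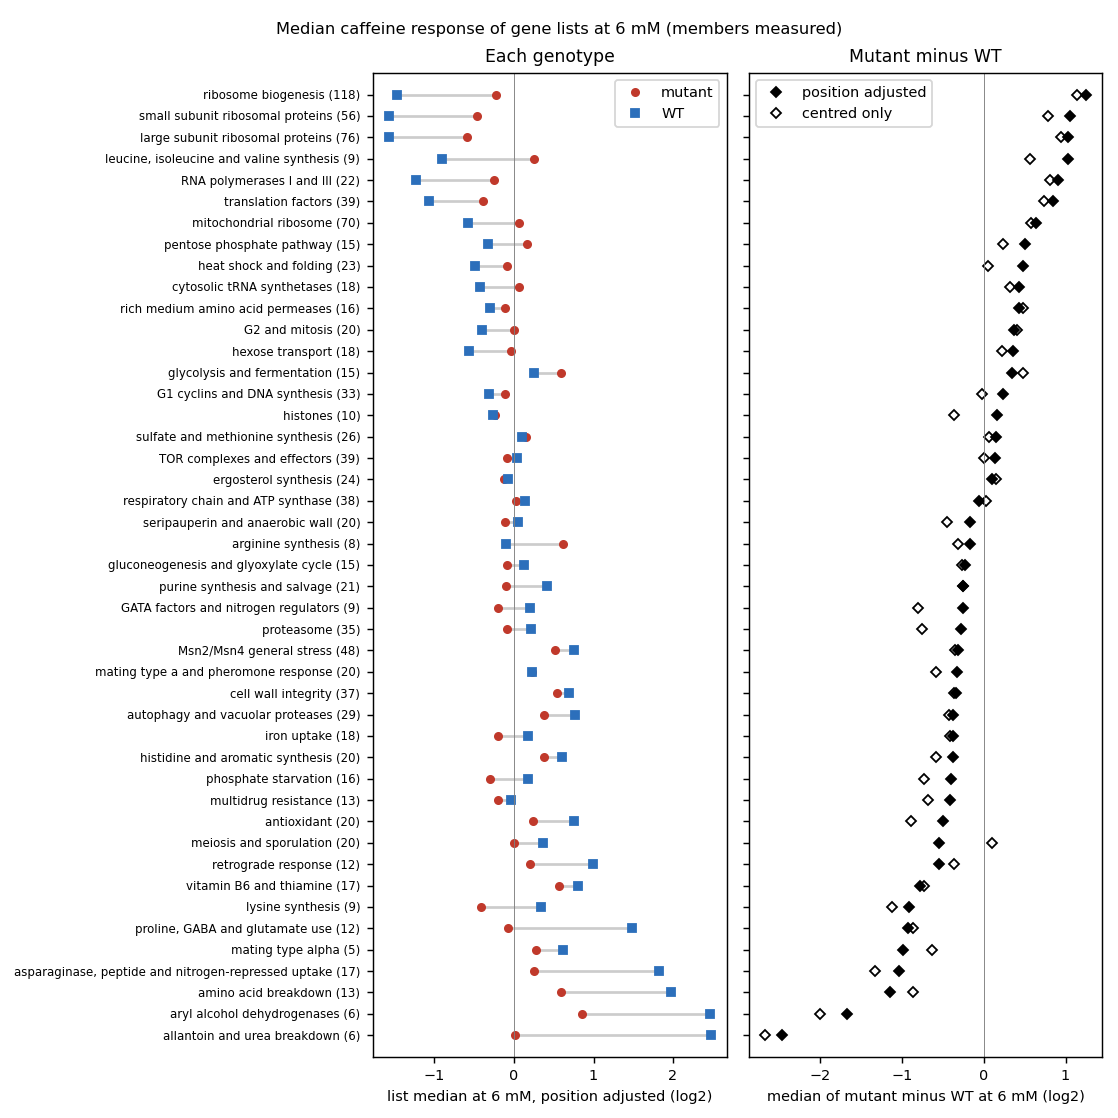
Median log2 ratio of 45 gene lists at 6 mM after position adjustment in the mutant (circles) and WT (squares) on the left, and the median difference, mutant minus WT, after adjustment (filled) and as centred (open) on the right; the number of genes measured stands after each name. Ribosome biogenesis has the highest adjusted difference, 1.25, and the allantoin genes the lowest, -2.46.

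TOR2, the kinase that can also work in TOR complex 1, had -1.20 in the mutant and -0.10 in WT, a difference of -1.11 that became 0.30 after adjustment. Of 39 genes for the TOR complexes and their effectors, 5 were at least 2-fold higher and 9 lower, or 3 and 4 after adjustment. These shares, 12.8% and 23.1%, or 7.7% and 10.3% adjusted, were near those of all genes. Over all genes they were 13.3% and 19.2%, or 11.0% and 9.97% adjusted. Of 38 genes fitted, 0 had a called slope, where 1.94% of all genes were called higher and 2.32% lower, so few calls would be looked for in a list of this size.

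Which genes lay in opposite directions in the genotypes depended on the adjustment. These genes were counted only among those with values on all 6 arrays and deposited ratios of at least 0.05 on both 6 mM arrays. ADE1, with -1.16 in the mutant and 1.31 in WT, was left out because it had no WT value at 3 mM. As centred, 34 of the genes counted were at least 2-fold below the array median in the mutant and at least 2-fold above it in WT. The reverse held for 10. After adjustment there were 3 of the first kind (GAL7, NRG1 and GPI18) and 4 of the second (MAY24, NAT3, WHI2 and IMD4). Of the 34 only 3, and of the 10 only IMD4, met the criterion both ways. The genes other than IMD4 were named after their values were seen.

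The size of the response at 6 mM was also read in genes chosen on other arrays, those at least 2-fold from the median in the same direction at both 3 and 9 mM in a genotype. The 341 genes chosen as high in WT had a median at 6 mM of 0.89 in the mutant and 1.66 in WT. The 299 genes chosen as low in WT had -0.86 in the mutant and -1.48 in WT. With position-adjusted values, 291 genes were chosen as high, with 0.70 in the mutant and 1.69 in WT, and 250 as low, with -0.50 in the mutant and -1.59 in WT. Of those 291, 92 were at least 2-fold above the median in the mutant and 230 in WT. Over all genes, as centred, 397 of 5376 were that high in the mutant and 764 of 5461 in WT. The share over all genes after adjustment was not counted. Genes chosen in the mutant give the reverse view: 46 high genes, adjusted, had 1.40 in the mutant and 1.83 in WT. Of these 46, 34 were at least 2-fold above the median in the mutant and likewise 34 in WT. The 40 low genes, adjusted, had -0.94 in the mutant and -0.88 in WT. As centred there were 116 high genes, with 1.17 in the mutant and 0.97 in WT, and 233 low genes, with -1.72 in the mutant and -0.73 in WT. Genes chosen on a genotype may be favoured on its own 6 mM array, since the arrays of a strain can share untreated RNA and position effects, and how far this entered the medians was not tested.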

How the data were processed

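The authors deposited log2 ratios of the paired channels: 2 to the power of a value was a ratio with 2 decimals for 100% of values on each array (tolerance 0.0001), which fixes base 2. How the authors corrected background, filtered spots and normalized is not given in the sources used here. Dyes were not exchanged. The table held 6214 probes; the platform annotation named 5596 with a single gene symbol, all matched to RefSeq, and 618 are unnamed here. Where several spots carried a gene, their mean was taken (34 genes). The mutant 6 mM array lacked a value for 234 probes and the WT 6 mM array for 123. Depth does not apply to arrays; their number limits the precision.

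The median over named genes was subtracted from every array. At 6 mM the difference, mutant minus WT, was counted at 2-fold without a test. The slope fit used limma 3.58.1 in R 4.3.3 (lmFit, eBayes, 2-sided, no intercept, 4 residual and 9.69 prior degrees of freedom). In 10 simulations of this contrast over 5212 genes, 47% to 66% of genes with a log2 difference of 2 at 9 mM and 92% to 100% with 3 were called, with 3 to 14 false calls. The simulated noise was independent between genes and arrays, without position classes or shared untreated RNA. These rates therefore cannot be carried over to the arrays here. Named genes were the 15 highest and 15 lowest differences with values on all 6 arrays and deposited ratios of at least 0.05, 5 per direction among genes with opposite responses, TOR1, TOR2, and in each of 45 lists up to 5 with the largest difference; exceptions are marked, and other names are list members given for comparison. Members and lists were chosen with earlier results of these data known.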

Additional observations from a re-analysis of the deposited data

Results flagged for a closer look

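The caffeine slopes of 19 of the 30 genes with the highest or lowest difference at 6 mM differed between the genotypes in the limma fit over 5212 genes. The 6 mM arrays that put these genes on the list are part of that fit, so the calls are not independent of the choice. Slopes are in log2 units per mM, mutant minus WT.

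The asparaginase copies had slope differences of -0.67 for ASP3-2, -0.67 for ASP3-1, -0.66 for ASP3-3 and -0.59 for ASP3-4. DAL5 had -0.60 and CPS1 -0.56. SRS2 had -0.52, VBA1 -0.50 and AMD2 -0.48. RRN5 had -0.44, TMT1 -0.43, SSU1 -0.40 and NRS1 -0.40. AAD14 had -0.38 and GIT1 -0.35, with adjusted p-values in limma of 0.0359 and 0.0445.

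On the other side, IMD4 had a slope difference of 0.51 and RRP36 of 0.40, with adjusted p-values in limma of 0.0116 and 0.0150. BUD20 had 0.35 and PUS4 0.31. After position adjustment GIT1 and PUS4 were no longer called, at adjusted p-values of 0.0583 and 0.0686, and the other 17 were. Under quantile normalization 0 of the 19 were called. With the WT array at 6 mM left out, 3 were called (ASP3-3, SRS2 and VBA1).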

How the results depend on the processing

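The count of genes at least 2-fold lower in the mutant was 530 with 16 position classes and 536 with 96, against 1020 as centred; both adjustments were chosen after seeing the data. Values as deposited, a common spread, quantile normalization, single spots, complete genes and ratios between 0.1 and 10 moved neither count by over 1.5 times. Sign changes were first read in named genes at least 2-fold apart as centred. Of these, TOR2 (0.30 and 0.15), HHF2 (0.14 and 0.27) and ASH1 (0.034 and 0.17) changed sign with 16 and 96 classes. YOR1 (-0.20) and PHO84 (0.066) did so with 96 classes only. Named genes less than 2-fold apart changed sign too with 16 classes, among them MES1 (-0.99 to 0.42), CDC60 (-0.96 to 0.45) and AFB1 (0.06 to -0.98).

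The slope fit called 222 genes. Replacing the slope by the mean of the differences paired by dose called 588. That fit treated the doses as replicates, although they are different conditions with 1 array per side. Quantile normalization called 0 in limma, with 648 genes at an unadjusted p below 0.05 and 1106 in the fit as centred. Leaving out 1 array gave 19 to 298 calls: 77 when the mutant array at 6 mM was left out, 19 when the WT array at 6 mM was, 70 for the mutant array at 3 mM and 138 for the WT array at 3 mM. The cause of these changes was not tested. The arrays were not replicated at any dose, and signal over background was not examined.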
